A study of Mus musculus with 8 samples.

Results

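The replication-dependent histone genes, taken as every gene of the deposited table whose name starts with Hist, a cluster number and h, were 67 of 36333 genes. Of these, 6 encode linker histone H1, 18 encode H2A, 18 encode H2B, 12 encode H3 and 13 encode H4. By cluster, 54 belong to Hist1 on chromosome 13, 10 to Hist2 on chromosome 3, 2 to Hist3 on chromosome 11 and 1 to Hist4 on chromosome 6 (GRCm38). They were measured in whole skin of male C57BL/6J mice. The 4 control libraries came from Nampt flox/flox mice. The 4 Nampt-cKO libraries came from Nampt flox/flox; KRT5-CreERT2+ mice, in which Cre is driven by the Krt5 promoter of basal keratinocytes, while dermal, immune, fat and muscle cells stay in the sample. An age of 8 weeks is given for the mice of both groups. From that age Nampt-cKO mice were injected with tamoxifen at 100 µg/g on 5 successive days, and the labels give tamoxifen for Nampt-cKO mice only. By the study's methods, skin was taken on Day 19 and RNA was selected by its poly-A tail. Replicates are numbered, and since nothing states that each is a separate mouse, the p-values reflect only how these libraries vary, which could be technical variation.

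Histones package DNA. A pair each of H2A, H2B, H3 and H4 wraps DNA into a nucleosome, and H1 binds the linker between nucleosomes. Replication-dependent histone genes are expressed mainly in S phase, when newly made DNA must be packaged. Most of their mRNAs carry no poly-A tail. They end shortly after a conserved stem-loop, which binds the stem-loop binding protein SLBP. Some members can also be made as longer or spliced mRNAs with a poly-A tail, as in differentiated cells. Poly-A selection leaves out most RNA without a tail, so the amount of stem-loop mRNA was not measured here.

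The 3′ ends below show which kind of end the annotation gives to the members that the results turn on. They were read from GENCODE M21 transcripts (GRCm38), and capitals mark the stem-loop.
Hist1h2ag: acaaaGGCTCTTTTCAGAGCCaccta
Hist1h2bk: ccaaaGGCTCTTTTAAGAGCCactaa
Hist1h4i: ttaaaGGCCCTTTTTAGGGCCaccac
Hist1h4n: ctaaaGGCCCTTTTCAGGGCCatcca
Hist1h1c: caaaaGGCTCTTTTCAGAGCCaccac

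The stem-loop pattern was found after the stop codon in 44 of the 67 members, and it was present in 46 of 75 histone transcripts (61.3%) against 0.0515% of all 141767 transcripts. The annotated transcript ended 23 bases after the stem-loop in Hist1h2ag, 30 in Hist1h2bk and 31 in Hist1h4n. It ran on for 330 bases in Hist1h4i, 770 in Hist1h4d and 840 in Hist1h1c. No match was found in Hist2h2be or Hist1h2bc. The poly-A signals near the ends of 3 of these longer transcripts are shown next, with the signal in capitals.
Hist2h2be: ttattattAATAAAgttaccga
Hist1h4i: ctgtttacATTAAAagtattct
Hist1h1c: atgcttctAATAAAaagcgttt

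A signal (AATAAA or ATTAAA) in the last 40 bases of a transcript was found in 17 of the 67 members, and in 28% of histone transcripts against 32.6% of all transcripts. With the spliced Hist1h2bc, 18 members had such a signal or more than 1 exon in the table.

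The libraries held 39390895 to 53762935 exon reads. The histone genes took 76.5 to 87.1 CPM (counts per library total, here unscaled) in controls and 84.9 to 120.0 CPM in Nampt-cKO skin, and the groups overlapped. All other CPM were scaled by the TMM method, and the same sums were then 76.5 to 86.0 and 87.1 to 124.7 CPM, without overlap. Nampt, the deleted gene, was at 60.4 to 77.7 CPM in controls. Nampt-cKO replicates 1, 2 and 4 lay below that range, at 32.3 to 49.6 CPM, while the library labelled Nampt-cKO replicate 3, at 76.1 CPM, went against its label. The log2 fold change of Nampt was −0.53 (edgeR, adjusted p = 0.0974). The neutrophil list summed to 16.5 to 23.2 CPM in controls and 35.6 to 763 CPM in Nampt-cKO skin, where 8 of 9 genes were higher. The T cell list summed to 24.04 to 31.4 CPM and 0.618 to 4.72 CPM, and all 3 of its genes were lower. Skeletal muscle genes varied from 133 to 1797 CPM in controls and from 73.8 to 2881 CPM in Nampt-cKO skin. Of 7 keratinocyte genes, 1 was higher, 3 were lower and 3 missed the threshold. Among the basal keratins, Krt5 was at 7553 and 8551 CPM on average and did not pass the test, and Krt14 rose from 2581 to 9348 CPM (log2 fold change 1.86, edgeR, adjusted p = 0.000308). Krt10, a keratin, and Lor, an envelope protein, both of differentiated epidermis, fell by 2.26 and 2.83 on the log2 scale (edgeR, adjusted p = 0.000283 and 8.1e-05). In whole skin, fewer cells of a type and less RNA per cell cannot be told apart. Of the other marker lists, 1 of 3 macrophage genes and 1 of 4 tested hair matrix and shaft genes were lower, and 0 of 3 erythroid genes passed the test. Over all genes tested 23.8% were higher and 22.0% lower. The part of cell composition in the results on histone genes was not tested.

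Of the 67 members, 63 had reads in at least 1 library and 4 had none. A Nampt-cKO library held reads of 43 to 52 members and a control library of 29 to 38. Reads were seen only in Nampt-cKO libraries for 8 members and only in controls for 5. These counts were not set beside counts over all genes, so nothing is read from them. Members known from the testis had few reads or none. Hist1h1t, which encodes the testis linker histone, and Hist1h2aa, the testis H2A, had 0 reads in all 8 libraries, and Hist1h2ba, the testis H2B, had 2 reads in 1 control. The protamine gene Prm1 was also at 0. The bulk of the signal came from few genes. The 6 members with the most reads held 83.5% of all histone reads, led by Hist1h2bc (31.9%), Hist1h1c (17.6%) and Hist2h2aa1 (15.9%).

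Per length, in the RPKM values of the deposited table (reads scaled by exon length and library size), Hist1h2bc was the most abundant H2B gene at 22.5 ± 2.03 RPKM in controls and 40.1 ± 7.46 RPKM in Nampt-cKO skin (SD, n = 4 each). Hist2h2aa1 led the H2A genes at 24.3 ± 4.17 and 19.4 ± 5.88 RPKM. Hist1h1c led the H1 genes at 15.9 ± 1.23 and 21.1 ± 6.00 RPKM. The leading H4 gene, Hist1h4i, was at 1.84 ± 1.18 and 8.17 ± 2.70 RPKM. Over all 8 libraries the leading H3 gene was Hist2h3c2, at 1.11 ± 1.29 and 1.93 ± 0.278 RPKM, while in controls its near copy Hist2h3c1 was higher, at 1.51 ± 1.75 RPKM. Reads of this pair lay on one or the other copy, and their sum had a log2 fold change of −0.38.

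**Figure D1:**
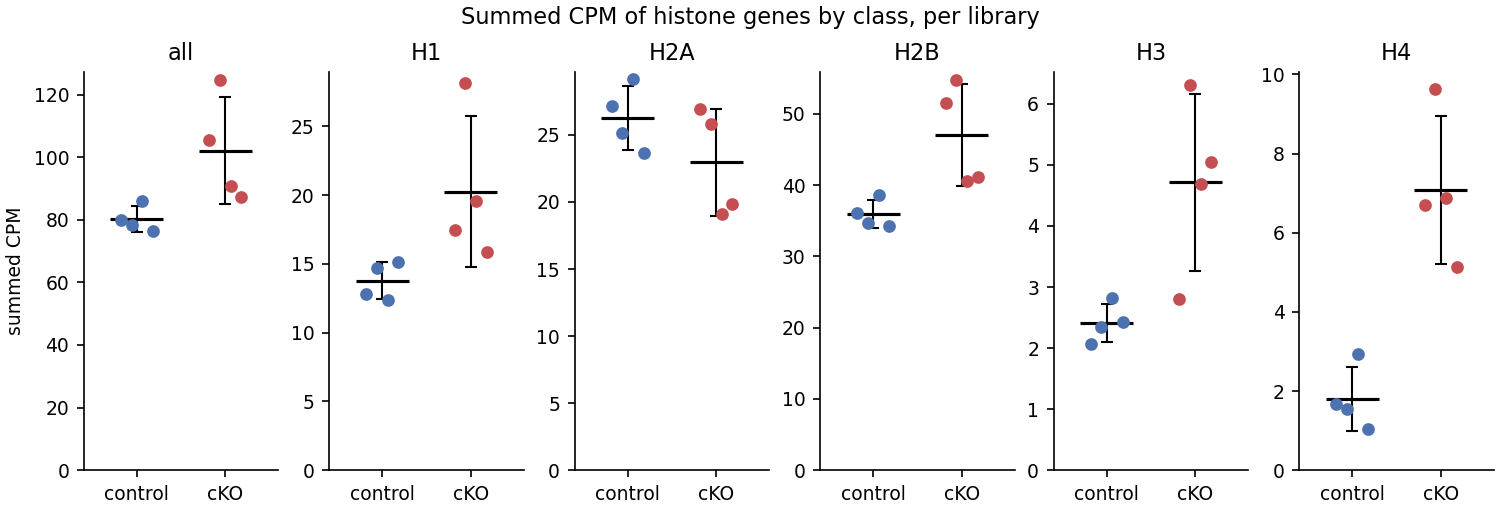
Summed CPM of the histone genes per library (vertical axes, each from 0) for all 67 members and for each class, in control and Nampt-cKO (cKO) skin, with group means as lines and SD as error bars (n = 4). H4 sums are 1.04 to 2.94 CPM in controls and 5.13 to 9.62 CPM in Nampt-cKO skin without overlap, while H2A and H3 sums overlap.

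The class sums did not move alike. Summed over its 13 members, H4 was at 1.68, 1.54, 2.94 and 1.04 CPM in controls 1 to 4 and at 6.71, 9.62, 6.89 and 5.13 CPM in Nampt-cKO replicates 1 to 4. All Nampt-cKO libraries lay above all controls, and the ratio of the means was 3.94. H2B sums were 34.3 to 38.7 CPM in controls and 40.6 to 54.8 CPM in Nampt-cKO skin, and H1 sums were 12.4 to 15.1 and 15.9 to 28.2 CPM, both without overlap. H2A sums overlapped, at 23.6 to 29.2 and 19.1 to 27.0 CPM, and so did those of H3, at 2.06 to 2.82 and 2.80 to 6.31 CPM. Most of the H2A sum came from Hist2h2aa1 (means 15.6 and 13.1 CPM) and Hist3h2a (7.79 and 5.47 CPM). The copies Hist2h3c1 and Hist2h3c2 gave 1.99 and 1.54 CPM of mean H3 sums of 2.41 and 4.71 CPM. By member, the Nampt-cKO mean was higher for 9 and lower for 6 H2A genes, and higher for 10 and lower for 2 H3 genes. By position, the Hist1 cluster summed to 40.5 ± 1.72 CPM in controls and 77.2 ± 13.6 CPM in Nampt-cKO skin, whereas Hist2 summed to 31.5 ± 1.94 and 19.1 ± 3.82 CPM (SD, n = 4 each). The class and cluster sums are given as a description, with no test.

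The main comparison asked which histone genes differed between Nampt-cKO and control skin. Exon reads were fitted with edgeR (quasi-likelihood), and p-values were adjusted by Benjamini-Hochberg over the 17286 genes that passed a filter on low counts, with a threshold of 0.05. Of the 67 members, 23 passed the filter and 44 did not. Among the 23, 7 were higher in Nampt-cKO skin (30.4%, against 23.8% of all genes tested), 1 was lower (4.35%, against 22.0%) and 15 did not pass the test. The median log2 fold change of the 23 was 0.88, with members at 0 in controls set to their lower bounds or not, and that of all genes tested was −0.01. Of the 7 higher members, 4 had no control library above the filter's minimum of 0.197 CPM. A gene that passes only through the group where it is high had to differ. Neither the share of 30.4% nor the median of 0.88 therefore supports anything about the members as a group. Permuting the libraries exactly, on CPM and two-sided, gave p = 0.0286, the smallest that 4 against 4 libraries allow, for each of the 8 called members except Hist1h4h (p = 0.0571). Leaving out control replicate 1, where 32 members passed the filter, raised the count of higher members to 11. Over all genes 3431 of 17718 were then higher. Leaving out Nampt-cKO replicate 2, where 25 members passed, raised the count of lower members to 2. Over all genes 3480 of 17663 were then lower. Without Nampt-cKO replicate 3 the counts were 7 and 1, with Hist1h4h (edgeR, adjusted p = 0.083) lost and Hist1h1d gained. Of 17658 genes tested then, 3860 were higher and 3625 lower.

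**Figure D2:**
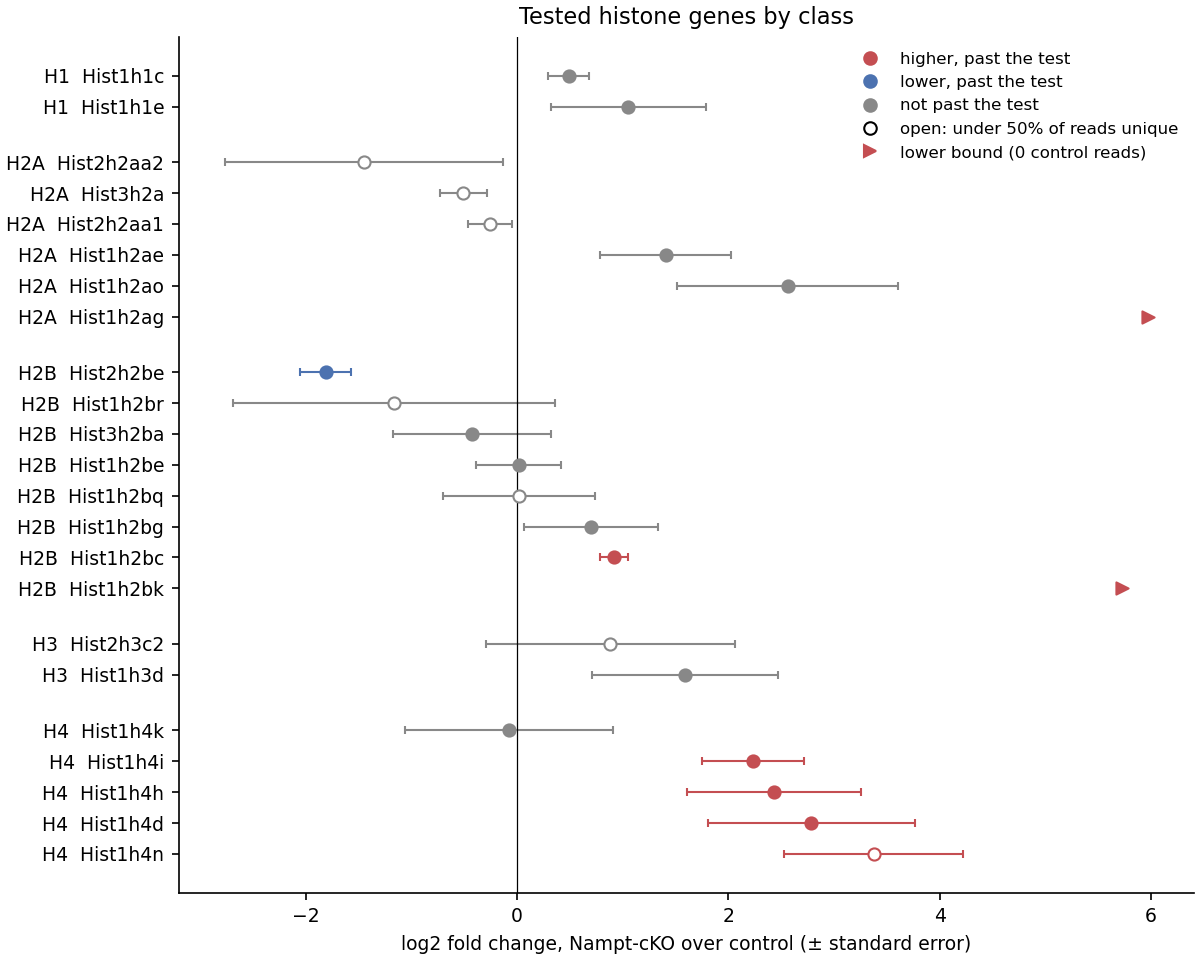
Log2 fold change of Nampt-cKO over control skin (horizontal axis) for the 23 tested histone genes, grouped by class, with the standard error of the fit. Triangles are lower bounds for 2 genes with 0 control reads, with each read taken as a separate event. Open symbols are genes with under 50% of reads placed at a single site. The 4 H4 genes past the test lie between 2.23 and 3.37, and Hist2h2be at −1.81 is the only gene past the test on the lower side.

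H2B genes held both the most abundant member that rose and the member that fell. Hist1h2bc (chr13:23684199-23692480, plus strand) was at 19.6, 19.8, 22.6 and 18.7 CPM in controls 1 to 4 and at 39.6, 46.3, 34.2 and 31.7 CPM in Nampt-cKO replicates 1 to 4. All Nampt-cKO libraries lay above all controls. The log2 fold change was 0.91 (standard error 0.13, edgeR, adjusted p = 0.000511). The table gives this gene 3 exons, and reads that cross from exon to exon made up 52.3% of its exon reads in controls and 46.5% in Nampt-cKO skin, so that spliced RNA is part of what was counted. None of the other members with several exons in the table had more than 14 such reads in a group.

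Hist2h2be (chr3:96221072-96223738, plus strand), whose single exon of 2667 bases runs to a poly-A signal, moved the other way. It was at 12.4, 10.8, 12.0 and 11.1 CPM in controls and at 4.82, 3.50, 2.37 and 2.45 CPM in Nampt-cKO replicates 1 to 4. The groups did not overlap. The log2 fold change was −1.81 (standard error 0.24, edgeR, adjusted p = 0.000337). Every read of this gene was unique, meaning that it was placed at a single site.

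Hist1h2bk, an H2B gene of Hist1 (chr13:22035821-22036320, plus strand), had 0 reads in all 4 controls and 37, 41, 50 and 28 reads in Nampt-cKO replicates 1 to 4, or 0.803 ± 0.121 CPM (SD, n = 4). Against the limit of 3 reads over the control group it was at least 53.0-fold higher (edgeR, adjusted p = 0.000394). That limit takes each read as a separate event. In each library, however, 61.7% to 64.2% of the genes with reads had an even count. If reads were counted in pairs, which was not tested, this and the other lower bounds given here are too high. Of its 156 reads 97 were unique, and in the fit of unique reads it also passed the test. Of the 75-base stretches of its GENCODE transcript, 64.4% were also found in Hist1h2bq.

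The remaining tested H2B genes did not pass the test. Hist1h2be was at 0.718 ± 0.299 CPM in controls and 0.727 ± 0.0733 CPM in Nampt-cKO mice (SD, n = 4 each), a log2 difference of 0.02 (standard error 0.40, edgeR, adjusted p = 0.981). Counted over its whole gene region, introns included, of which 496 bases overlap Hist1h1e, the log2 fold change was −1.10 (edgeR, adjusted p = 0.0155). Hist1h2bp, with 6 exons in the table, had 1 read in controls and 25 in Nampt-cKO skin, of which 17 were in replicate 1, and was too low to be tested.

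Among H2A genes, Hist1h2ag (chr13:22042478-22042949, minus strand) had 0 reads in all 4 controls and 24, 46, 94 and 20 reads in Nampt-cKO replicates 1 to 4, or 0.927 ± 0.619 CPM (SD, n = 4). It was at least 62.5-fold higher against the limit of 3 reads over the controls (edgeR, adjusted p = 0.00129). Of its 184 reads 116 were unique. Hist1h2ab, also at 0 in controls, had 18, 16, 22 and 0 reads in Nampt-cKO skin. It was at least 19.04-fold higher as a group sum but was at 0 in replicate 4 and did not pass the filter.

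The H2A genes with the highest levels gave other values. Hist2h2aa1 was at 15.6 ± 2.58 CPM in controls and 13.1 ± 3.59 CPM in Nampt-cKO libraries (SD, 4 libraries each), and the groups overlapped (log2 fold change −0.25, standard error 0.21, edgeR, adjusted p = 0.351). Hist3h2a, named after its values were seen because it is among the 6 members with the most reads, was at 7.79 ± 0.965 and 5.47 ± 1.49 CPM (edgeR, adjusted p = 0.0914). It was called lower with limma-voom, on log2 of RPKM and without Nampt-cKO replicate 2. Of H2A genes at lower levels, some settings other than the main test called Hist1h2ao and Hist1h2ae higher. Hist2h2aa2 had 131, 221, 0 and 79 reads in controls and 15, 0, 48 and 79 in Nampt-cKO skin (edgeR, adjusted p = 0.398). All 508 bases of the region of Hist3h2a lie within Trim17 on the same strand. Only 5.09% of the reads of Hist3h2a and 0.283% of those of Hist2h2aa1 were unique.

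H4 genes gave 4 of the 7 higher calls, out of 5 H4 genes tested and 13 in all, where 23.8% of all genes tested were higher. Of these 4, Hist1h4d and Hist1h4n had no control library above the filter's minimum and passed it only through Nampt-cKO libraries, so the count supports nothing about the class. Hist1h4i (chr13:22040960-22041362, minus strand) was at 0.672, 0.880, 1.58 and 0.285 CPM in controls and at 3.41, 6.02, 3.64 and 3.07 CPM in Nampt-cKO replicates 1 to 4. The lowest Nampt-cKO library lay above the highest control. The log2 fold change was 2.23 (standard error 0.48, edgeR, adjusted p = 0.00448).

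Hist1h4n (minus strand) had 0, 4, 0 and 2 reads in controls and 20, 14, 16 and 14 reads in Nampt-cKO skin, without overlap (log2 fold change 3.37, standard error 0.85, edgeR, adjusted p = 0.00965). None of these reads was unique. Hist1h4d had 0, 4, 10 and 0 reads in controls and 19, 42, 14 and 18 reads in Nampt-cKO skin, without overlap (log2 fold change 2.78, standard error 0.98, edgeR, adjusted p = 0.0418), and all of its reads were unique. Hist1h4h was at 0.480, 0.037, 0.232 and 0.041 CPM in controls and at 1.41, 0.783, 1.603 and 0.417 CPM in Nampt-cKO skin. Its groups overlapped, and the log2 fold change was 2.43 (standard error 0.82, edgeR, adjusted p = 0.0359). Leaving out single libraries ended the call of Hist1h4h in 6 of 8 cases and that of Hist1h4d in 5 of 8, with adjusted p of up to 0.083 and 0.11. With no filter on low counts Hist1h4d also missed the threshold (edgeR, adjusted p = 0.0755). The 5th tested H4 gene, Hist1h4k, was at 0.245 ± 0.0874 and 0.230 ± 0.302 CPM (log2 fold change −0.08, edgeR, adjusted p = 0.958).

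**Figure D3:**
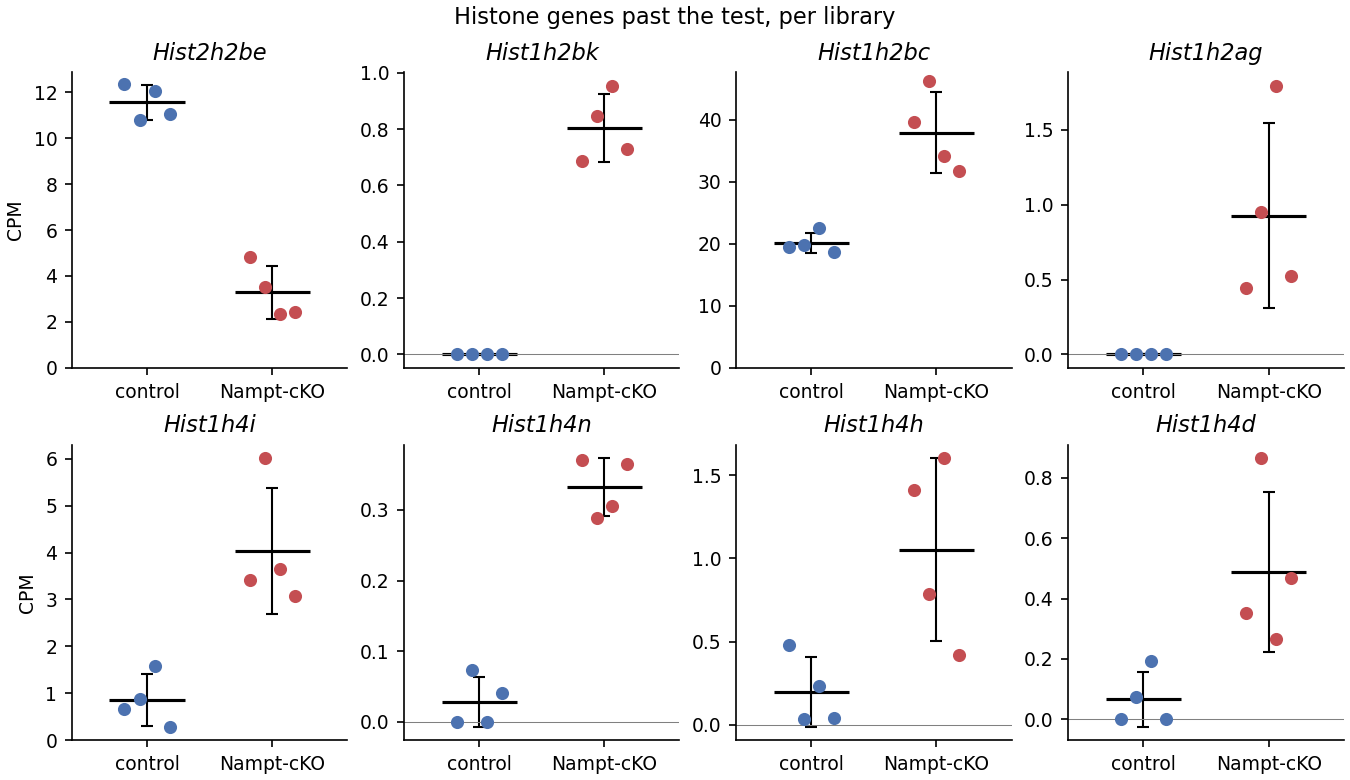
CPM per library of the 8 histone genes past the test (vertical axes, each with its own scale), in control and Nampt-cKO skin, with group means as lines and SD as error bars (n = 4). Hist2h2be drops from 10.8 to 12.4 CPM in controls to 2.37 to 4.82 CPM, and Hist1h2bk and Hist1h2ag are at 0 in every control.

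Neither H1 nor H3 had a member past the main test, though other settings called some. Hist1h1c, a linker histone gene with a poly-A signal in its long transcript, was at 12.5, 13.9, 12.3 and 14.6 CPM in controls and at 15.0, 26.3, 18.9 and 14.7 CPM in Nampt-cKO replicates 1 to 4. The groups lay next to each other without overlap, and the log2 fold change of 0.49 missed the threshold (standard error 0.19, edgeR, adjusted p = 0.0621). It passed with DESeq2 (adjusted p = 0.0398), with limma-voom (adjusted p = 0.0429) and without Nampt-cKO replicate 1 or 4 (edgeR, adjusted p = 0.0306 and 0.039). Reads assigned to its gene but outside its annotated exon were 19.1% of its reads in controls and 19.4% in Nampt-cKO skin. Hist1h1e was at 0.282 ± 0.271 and 0.593 ± 0.207 CPM (log2 fold change 1.05, edgeR, adjusted p = 0.272). Among H3 genes, Hist1h3d was at 0.128 ± 0.126 and 0.383 ± 0.140 CPM (log2 fold change 1.59, edgeR, adjusted p = 0.171; all SD, n = 4), and it passed on log2(RPKM + 1) alone (limma, adjusted p = 0.0421). With no filter, Hist1h1d, Hist1h3a, Hist1h3c and Hist1h3f were called higher. The untested H3 genes had at most 234 reads in all, and 8 of these 10 had the higher mean in Nampt-cKO skin.

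The 44 untested members held little signal, 7.08 ± 0.966 CPM summed over Nampt-cKO libraries and 2.45 ± 1.21 CPM over controls (SD, n = 4 each). Of these, 40 had reads. The Nampt-cKO mean was the higher in 32 and the lower in 8. Over all 67 members, all Nampt-cKO libraries lay above all controls in 12 and below them in 1. Among the 23 tested, these counts were 8 and 1, where the shares over all genes tested were 23.0% and 22.4%. Of the 8, 4 had no control library above the filter's minimum, so nothing is read from that count. For the 67 members and the untested ones no share over all genes was taken, so nothing is read from those counts either.

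Copies of nearly the same sequence limit what can be said of single members. All 75-base stretches of Hist2h2aa2 were found in Hist2h2aa1, and 96.1% of those of Hist1h2bq in Hist1h2br. Hist1h2bq had 105, 158, 74 and 41 reads in controls and 181, 50, 12 and 122 in Nampt-cKO skin, and Hist1h2br had 0, 2, 71 and 65 and then 0, 41, 19 and 0. Within single libraries the reads of the pair thus lay on 1 copy or were split. None was unique. Hist2h3c2 had 64, 98, 0 and 0 reads in controls and 80, 60, 92 and 64 in Nampt-cKO skin, while Hist2h3c1 had 0, 0, 126 and 108 in controls and 0 in all Nampt-cKO libraries. In each library all reads of this H3 pair lay on 1 copy, on Hist2h3c1 in controls 3 and 4 and on Hist2h3c2 in the other 6. Hist2h3c1, over 664 bases, and Hist2h2aa1, over 499 bases, also overlap Gm20634 on the same strand. The part of such overlaps in how reads were placed was not tested.

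As sums, 3 of the 4 pairs did not pass the test. Hist2h3c1 and Hist2h3c2 gave 1.54, 1.80, 2.43 and 2.20 CPM in controls and 1.48, 1.24, 1.76 and 1.67 CPM in Nampt-cKO skin (log2 fold change −0.38, standard error 0.27, edgeR, adjusted p = 0.292). Hist1h2bq and Hist1h2br gave 2.60 ± 0.342 and 2.25 ± 1.29 CPM (edgeR, adjusted p = 0.737). Hist2h2aa1 and Hist2h2aa2 gave 17.8 ± 1.38 and 13.9 ± 2.87 CPM (log2 fold change −0.36, standard error 0.16, edgeR, adjusted p = 0.0938; SD, n = 4 each). Of the 4 pairs, only Hist1h4m and Hist1h4n passed as a sum, with 0, 4, 0 and 2 reads in controls and 37, 14, 16 and 14 in Nampt-cKO skin (log2 fold change 3.68, standard error 0.88, edgeR, adjusted p = 0.00757). The summing of pairs was added after the data were seen.

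**Figure D4:**
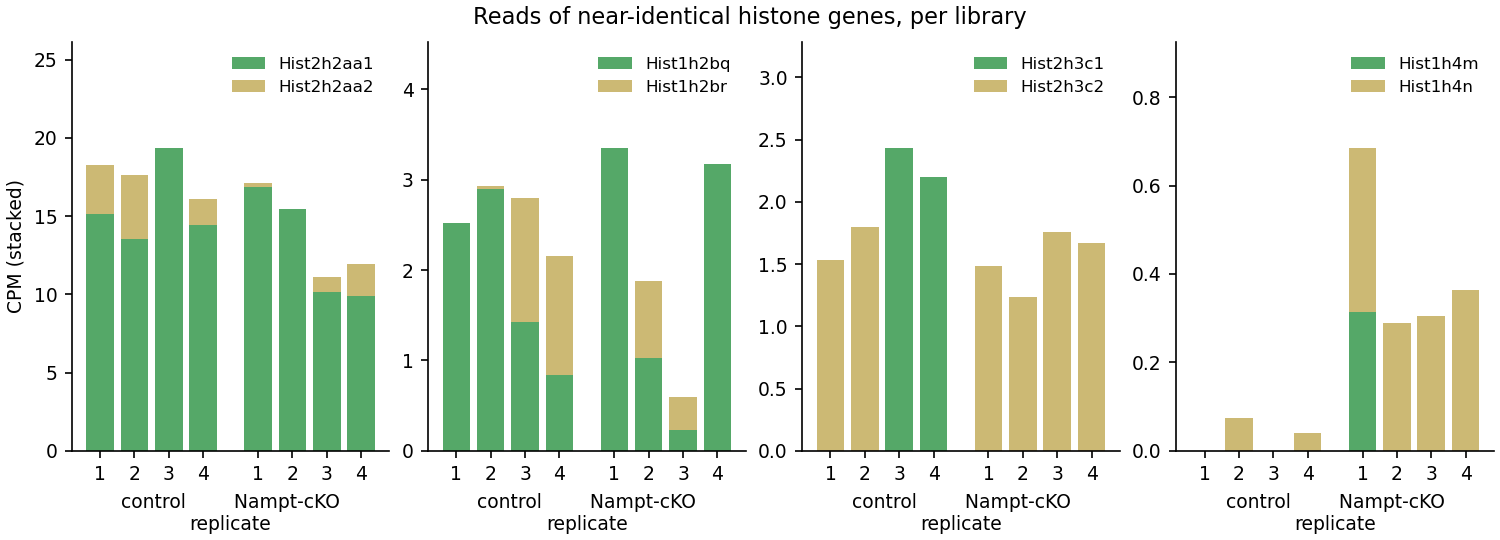
CPM per library (vertical axes, from 0) of 4 pairs of near-identical histone genes, stacked by the copy on which the reads were placed, for replicates 1 to 4 of control and of Nampt-cKO skin. Reads of Hist2h3c1 and Hist2h3c2 sit on 1 copy in each library, and only the sum of Hist1h4m and Hist1h4n passed the test.

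In controls 58.2% to 61.5% of histone reads were unique, and in Nampt-cKO skin 66.6% to 75.6%. In the fit of unique reads, 16 members were tested, 6 were higher (24.4% of all genes tested this way were) and 1 was lower (22.5%). These 7 were all among the 8 calls of the main test, and Hist1h4n had no unique reads.

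On chromosome 13, 3 of the higher members were neighbours. Hist1h2bk, Hist1h4i and Hist1h2ag lie among 5 histone genes that follow each other, the others being Hist1h2ah and Hist1h2bj, and this group was singled out after its values were seen. Its 5 genes summed to 0.816, 0.953, 1.58 and 0.285 CPM in controls and to 4.78, 8.18, 7.38 and 4.85 CPM in Nampt-cKO skin. Hist1h2bj had 6, 4, 0 and 0 reads in controls and 8, 18, 52 and 20 in Nampt-cKO skin, and Hist1h2ah had 5 reads in 1 Nampt-cKO library. The groups did not overlap in the sum, to which Hist1h4i gave most of the reads.

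In 12 places an H2A and an H2B gene stand head to head with fewer than 400 bases between them. In 4 of these places 1 of the genes was past the test, and their reads are given here. Hist1h2ac, 239 bases from Hist1h2bc, had 14 reads over controls and 66 over Nampt-cKO libraries, where Hist1h2bc had 3983 and 7396. Hist2h2ac, 191 bases from Hist2h2be, had 9 and 4 reads against 2269 and 648. Hist1h2ah and Hist1h2bk, 177 bases apart, had 0 and 5 reads and 0 and 156 reads. Hist1h2ag and Hist1h2bj, 280 bases apart, had 0 and 184 reads and 10 and 98 reads. In all of these places but that of Hist2h2be, both genes had more reads in Nampt-cKO skin than in controls.

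Promoters of 4 of the higher members, 3 of them from the neighbours on chromosome 13 and the fourth for comparison of H4 genes, are shown from 150 bases before to 10 bases after the start (RefSeq, GRCm38.p6, each 5′ to 3′ on the gene's strand). Capitals mark the CCAAT box, a TATAAA box or the octamer (ATTTGCAT) on either strand.
Hist1h2ag, chr13:22042940-22043099, minus strand: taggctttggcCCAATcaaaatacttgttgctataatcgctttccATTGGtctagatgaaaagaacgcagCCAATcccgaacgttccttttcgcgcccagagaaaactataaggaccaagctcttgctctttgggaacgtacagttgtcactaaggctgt
Hist1h2bk, chr13:22035671-22035830, plus strand: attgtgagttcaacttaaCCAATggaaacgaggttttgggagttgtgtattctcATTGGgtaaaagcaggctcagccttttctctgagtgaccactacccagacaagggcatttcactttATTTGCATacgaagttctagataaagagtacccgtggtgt
Hist1h4i, chr13:22041353-22041512, minus strand: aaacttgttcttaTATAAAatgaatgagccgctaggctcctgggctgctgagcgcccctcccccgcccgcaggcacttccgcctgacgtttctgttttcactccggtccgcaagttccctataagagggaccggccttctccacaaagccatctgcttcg
Hist1h4n, chr13:21832188-21832347, minus strand: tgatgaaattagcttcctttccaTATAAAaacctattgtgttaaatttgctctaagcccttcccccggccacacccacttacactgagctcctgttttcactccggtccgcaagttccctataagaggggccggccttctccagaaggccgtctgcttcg

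Promoters were at hand for 62 members, 63 promoters in all. Both strands were searched from 250 bases before to 50 bases after the start. Windows of head-to-head H2A and H2B genes can overlap, so the same match can count for both genes. CCAAT, the box bound by NF-Y, was in 54 of 63 (85.7%) against 37.4% of 32851 promoters of all genes. It was in all promoters of H1, H2A, H2B and H3 genes and in 3 of 12 of H4 genes. TATAAA was in 55.6% against 13.6%, and the octamer, to which Oct-1 (Pou2f1) binds, in 22.2% against 1.74%, all of them H2A or H2B promoters. The promoters of Hist1h4i and Hist1h4n shared a run of 38 bases, where the median over the 66 pairs of H4 promoters was 9 bases. Hist1h4i shared a run of that length with Hist1h4m too. Longer runs were those of Hist1h4m with Hist1h4n, of 285 bases, and of Hist1h4j with Hist1h4k, of 72 bases. Neither Hist1h4j nor Hist1h4k was called. Among the H4 genes called higher, every pair other than Hist1h4i with Hist1h4n shared a run of only 8 or 9 bases. A match is a description of the letters, not of binding.

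Genes that act on histone mRNA were compared from lists chosen with earlier results known. Their counts stand beside shares of 23.8% higher and 22.0% lower over all genes tested. Of 19 genes for histone gene transcription, 11 rose, 0 fell and 8 missed the threshold (median log2 fold change 0.49, against −0.01 for all genes tested). Ccne1, which encodes the cyclin E1 that drives entry into S phase, rose from 2.11 ± 0.502 to 13.5 ± 4.49 CPM (log2 fold change 2.67, edgeR, adjusted p = 0.000138), and Ccne2 from 2.40 ± 0.752 to 10.4 ± 3.04 CPM. Yy1, a zinc finger transcription factor, rose from 69.4 ± 1.79 to 97.4 ± 5.42 CPM (log2 fold change 0.49, edgeR, adjusted p = 0.000407). Npat, the coactivator of histone gene transcription, was at 18.3 to 21.6 CPM in controls and 24.6 to 35.8 CPM in Nampt-cKO skin (log2 fold change 0.70, edgeR, adjusted p = 0.00213), and was chosen after its values were seen.

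Of 27 genes of histone pre-mRNA processing and decay, 18 rose, 3 fell and 6 missed the threshold (median log2 fold change 0.40). Over all genes tested 23.8% rose and 22.0% fell. Snrpe, an Sm protein, rose from 30.4 ± 1.06 to 58.6 ± 6.58 CPM (log2 fold change 0.95, edgeR, adjusted p = 7.9e-05). Ncbp1, a subunit of the cap-binding complex, rose by 0.80 and Cpsf2, a cleavage factor subunit, by 0.70 on the log2 scale. Snrpg, the most abundant of the list per length, rose by 0.82 on the log2 scale. These 4 also serve mRNAs in general. Slbp, named after its values were seen as the binder of the stem-loop, was at 27.6 to 30.0 CPM in controls and at 39.3 to 50.1 CPM in Nampt-cKO skin (log2 fold change 0.63, edgeR, adjusted p = 0.00102). The proteins specific to the U7 snRNP, also named after the fact, went the other way from Snrpe and Snrpg, which are in its ring as well: Lsm10 fell by 0.65 and Lsm11 fell by 0.55 on the log2 scale (edgeR, adjusted p = 0.0222 and 0.0318).

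**Figure D5:**
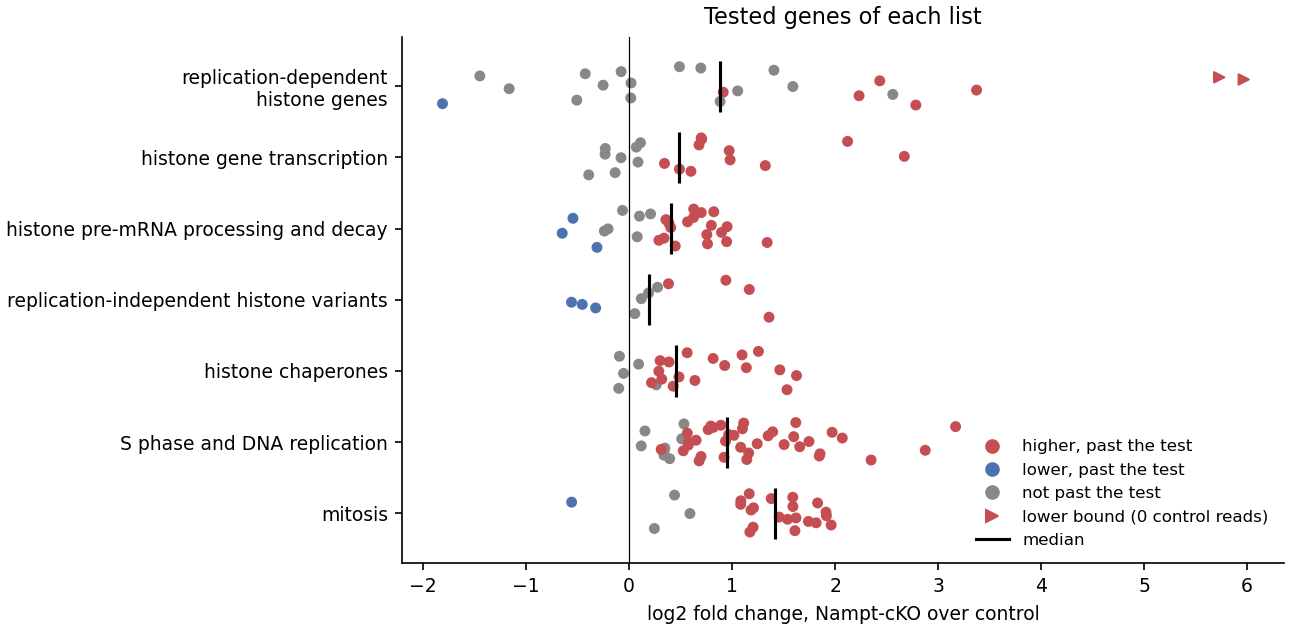
Log2 fold change of Nampt-cKO over control skin (horizontal axis) for each tested gene of the replication-dependent histone genes and of 6 related lists, with list medians as vertical bars and lower bounds as triangles. The lowest histone gene, Hist2h2be, lies at −1.81, while of the 44 genes of S phase and DNA replication 36 are higher and 0 lower. Over all genes tested 23.8% are higher and 22.0% lower.

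Genes listed as replication-independent histone variants were called in both directions. Of 17 in the table, 11 were tested, of which 4 rose, 3 fell and 4 missed the threshold. Over all genes tested 23.8% rose and 22.0% fell. H2afx, the H2A variant that is phosphorylated at DNA breaks, rose from 26.4 ± 3.65 to 59.3 ± 18.1 CPM (log2 fold change 1.17, edgeR, adjusted p = 0.00119). H2afz, a variant of H2A found at promoters, rose from 84.4 ± 15.2 to 161.8 ± 20.4 CPM, and the centromeric H3 variant Cenpa from 13.97 ± 2.51 to 35.8 ± 12.98 CPM (edgeR, adjusted p = 0.000631 and 0.00153). H3f3a, which encodes H3.3 and was the most abundant of the list, fell by 0.33 on the log2 scale, from 698.3 ± 22.5 to 557.3 ± 21.8 CPM (edgeR, adjusted p = 0.0036; SD, n = 4 each).

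Genes of S phase and of chromatin assembly moved mostly one way, where 23.8% of all genes tested were higher and 22.0% lower. Of 22 histone chaperone genes 17 were higher and 0 lower, among them Nasp, a chaperone of H3 and H4 (log2 fold change 1.10, edgeR, adjusted p = 5.6e-05), Npm1 (1.14) and Nap1l1 (0.82). Of 44 genes of S phase and DNA replication 36 were higher and 0 lower, with a median log2 fold change of 0.95. Orc1, of the origin recognition complex, rose from 0.900 ± 0.182 to 8.10 ± 1.84 CPM, Mcm4 of the replicative helicase from 29.5 ± 2.996 to 77.4 ± 12.3 CPM, and Pcna, the sliding clamp, from 74.8 ± 6.79 to 151.3 ± 10.6 CPM. Of 24 genes of mitosis 20 were higher and 1 lower, and the smallest p was that of Top2a, the topoisomerase that untangles chromosomes (log2 fold change 1.62).

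Other RNAs that carry no poly-A tail were also counted. Of 146 such genes in the table, 123 had 0 reads in all libraries and 5 could be tested. Their sum was 8.14 to 10.7 CPM in controls and 7.38 to 15.8 CPM in Nampt-cKO skin, and the groups overlapped. Rpph1, the RNA of ribonuclease P, was the single one past the test, at 0.251 ± 0.173 and 1.19 ± 0.470 CPM (log2 fold change 2.22, edgeR, adjusted p = 0.0437). Intron reads made up 10.8% to 11.8% of gene reads in controls and 12.7% to 16.5% in Nampt-cKO skin, and the part of unprocessed or untailed RNA in the counts of histone genes was not tested. Split by annotation, the 18 members with a poly-A signal or introns summed to 59.2 ± 3.81 and 74.9 ± 13.9 CPM, a ratio of 1.27, and the other 49 to 20.99 ± 1.73 and 27.1 ± 3.34 CPM, a ratio of 1.29. These sums rest on a few abundant genes. Over the tested members of each group, the median log2 fold change was 0.02 for the 11 with a signal or introns and 1.32 for the 12 others. Of these 12, 11 passed the filter without all control libraries above its minimum, against 3 of the 11 with a signal or introns. Members admitted through the group where they are high raise a median, so nothing is read from these values.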

How the data were processed

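RNA of 4 control and 4 Nampt-cKO whole-skin libraries was measured by RNA-seq. The authors deposited a table of read counts per gene (total and unique exon reads, gene, intron and exon-exon reads) and of RPKM made from exon reads and exon length. The submitters' notes give GRCm38 (mm10), while no source used here names the aligner or counter. The table's own p-values and fold changes were not used. The main test on total exon reads used edgeR 4.0.16 (R 4.3.3; TMM, filterByExpr, quasi-likelihood fit, condition only), tested on simulated data. CPM are TMM-normalized. A count of 0 was read against 3 reads over a group, for counting error only and with each read taken as a separate event. Alternatives were other scalings and filters, DESeq2 1.42.0, limma 3.58.1 (voom, or log2 of RPKM plus 0.1 or 1), a robust fit, unique or gene reads, the 20 most abundant genes left out, a replicate block and each library left out. Members and lists were chosen with earlier results of these data known. The 20 named members are those past the test, the most abundant, the largest and smallest fold changes of each class, long or multi-exon genes, genes at 0 in controls and genes with few unique reads. From other lists, up to 3 genes by p and the most abundant were named. Testis, erythroid, macrophage and hair lists were used as markers. All 67 members matched RefSeq. Python 3.11.15 with pandas 2.3.3 made tables and plots.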

Additional observations from a re-analysis of the deposited data

Results flagged for a closer look

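In 37 groups of 4 libraries examined for the named histone genes, 2 held a library that stood apart from the other 3 by Dixon's criterion (the gap to the nearest library over the group's whole range). Chance flags about 1 in 20 groups. In Nampt-cKO skin Hist1h1e was at 0.286 CPM in replicate 3, where the next library had 0.667 CPM. In controls Hist1h2bp was at 0.024 CPM in replicate 1, which is a single read, and at 0 in the others.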

How the results depend on the processing

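The main test called 7 histone genes higher and 1 lower. Without a filter on low counts, 63 members were tested and 11 were higher and 2 lower, where 15.6% and 15.0% of all genes were. The second lower gene was Hist2h3c1, whose near copy Hist2h3c2 held the reads of the pair in the other libraries, and Hist1h4d lost its call (edgeR, adjusted p = 0.0755). A stricter filter left 9 members, with 2 higher and 1 lower, where of all 14631 genes it left 4145 were higher and 3505 lower. On log2(RPKM + 0.1) with no filter 17 were higher and 2 lower, where of 24936 genes 3365 were higher and 4514 lower. Counts of lower genes were also 2 with limma-voom, with log2(RPKM + 0.1), with log2(RPKM + 1) and with total gene reads. The second was Hist3h2a, or Hist1h2be with total gene reads. Over all genes 4301, 4680 and 4686 of 17286 and 4210 of 19062 were lower in these settings, in the same order. Leaving out 1 library at a time left 25 to 32 members tested, with 6 to 11 higher and 1 to 2 lower. Over all genes 3431 to 4534 were then higher and 3095 to 4475 lower, of 17641 to 17737 tested. With replicate number as a block, 6 were higher and 1 lower, and Hist1h4d lost its call (edgeR, adjusted p = 0.0584). Of 17286 genes, 3749 were higher and 3767 lower in that fit. Deviations of same-numbered libraries correlated at −0.054 to 0.179, so the numbers were not taken as pairs. All 8 calls were kept with DESeq2, limma-voom, other scalings and the robust fit.

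Members near 0 changed sign. Hist1h2be, at 0.02 in the main test, was at −0.037 with upper-quartile factors, −0.013 with no composition factors, −0.0052 with log2(RPKM + 0.1) with or without the filter, −0.0096 with log2(RPKM + 1), −1.10 with total gene reads and −0.14 to 0.31 with libraries left out. Hist1h2bq was at −0.016 with upper-quartile factors, −0.0048 with no composition factors, −0.73 with limma-voom, −0.33 with log2(RPKM + 0.1) with or without the filter, −0.067 with log2(RPKM + 1), −0.40 with the replicate block and −0.39 to 0.39 with libraries left out. Hist1h4k was at 0.21 with total gene reads and −1.41 to 0.31 with libraries left out. Where the filter was changed, the number of genes tested changed with it. The cause of the other changes was not tested. The 40 untested members with reads had at most 234 reads each, and each had too few libraries above the filter's minimum of 0.197 CPM to pass.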
